A study of Drosophila melanogaster with 4 samples.

Results

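Long stretches of the fly chromosome arms carried no region called enriched for H3K79me1, a single methyl group on a core lysine of histone H3, in nuclei from adult Drosophila melanogaster heads. The stretches were chosen by the readout itself. Each is a gap of 40 kb or more between the end of one enriched region and the start of the next, in the authors' list for the combined replicates, on the arms 2L, 3L, 3R or X. This rule gave 260 stretches among the 10249 gaps of these arms and the 12925 gaps of all sequences. A further 3 gaps of that length, 0.738 Mb in 2 blocks of 3R, were set aside by the rule. The absence of combined regions from the stretches, their lengths and their borders follow from that choice, so they are given as descriptions without a test.

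The series held 2 ChIP libraries made with the H3K79me1 antibody (Abcam, lot 1) and 2 input libraries of genomic DNA. All came from wild-type flies of the strain Oregon-R (Oregon-R-modENCODE), labelled Mixed Adult, that were raised in population cages and whose heads were collected in bulk with sieves. No treatment was applied, and whether the replicates were separate collections is not stated in the labels, so differences between them may be technical. Each ChIP library has its own region list, and how the inputs were used for the lists is not given. Library depth is unknown.

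The fly enzyme for H3K79 methylation is the Dot1 protein encoded by the gene grappa. The mark generally lies over the bodies of transcribed genes. Fly chromosomes are known to hold long silent domains within their arms, besides the silent heterochromatin around the centromeres. A head sample mixes neurons, glia, photoreceptors, fat body and muscle, and in such a sample fewer cells with the mark and less of the mark per cell cannot be told apart. A gap in a region list says that no region passed the authors' threshold, not that the mark was absent. Gene models on the coordinate release of these lists, FlyBase release 5, were not used here, so no gene is assigned to a stretch.

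The 260 stretches made up 19.3 Mb, or 19.7% of the 4 arms, and 29.8% of all the length between regions there, although they were 2.54% of the gaps by number. The median gap on these arms was 2005 bp, and the median stretch was 59.0 kb, with the middle 50% between 46.7 and 80.9 kb. Short members dominated by number: 136 were from 40 to 60 kb long and made up 6.57 Mb. Long members carried much of the length, since the 45 of 100 kb or more made up 6.92 Mb, or 35.8% of it. Members just inside the threshold measured 40055 bp and 40189 bp on 3L and 40267 bp on X. Gaps just outside it measured 39649 bp on X, 39945 bp on 3R and 39981 bp on 3L, so the limit cuts a continuous range of lengths.

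**Figure D1:**
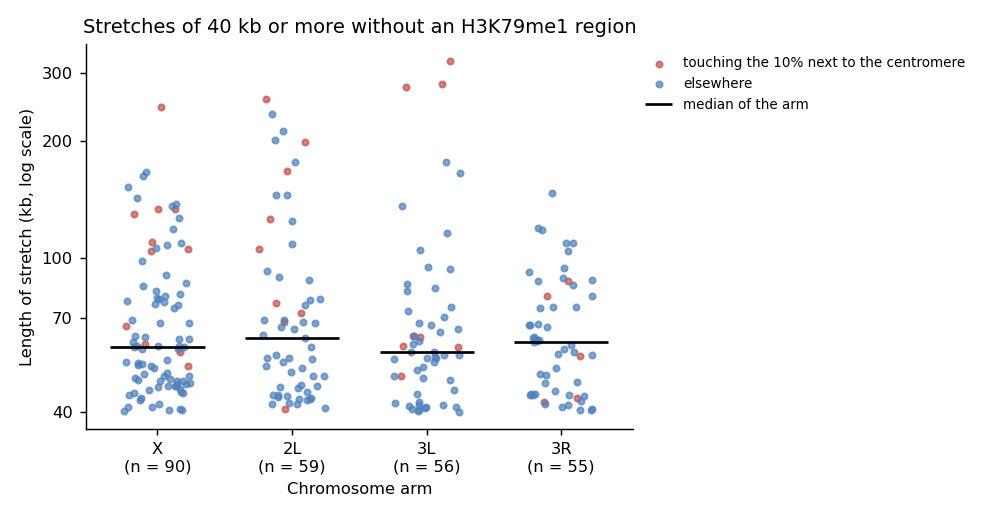
Length in kb (log scale) of each of the 260 stretches by chromosome arm; each point is 1 stretch, red where it touches the 10% of the arm next to the centromere, and the line is the median of the arm. Medians lie close together, from 57.1 kb on 3L to 62.1 kb on 2L, while the X holds more stretches than any of the 3 autosomal arms shown.

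Of the 4 arms, the X held the most stretches. It carried 90 stretches, or 4.01 per Mb, against 59 on 2L (2.56 per Mb), 56 on 3L (2.28 per Mb) and 55 on 3R (1.97 per Mb). They took up 29.3% of the X, against 21.0% of 2L, 17.6% of 3L and 13.0% of 3R. The X share was thus 1.70 times the mean of the 3 autosomal arms. The same rule applied to each replicate list gave an X share of 57.3% against an autosomal mean of 37.6% in replicate 1, and 60.0% against 33.9% in replicate 2. These are ratios of 1.52 and 1.77 (mean 1.65 ± 0.175, SD, n = 2). In each list the X lay above the highest autosomal arm, which was 2L at 43.8% in replicate 1 and 40.9% in replicate 2.

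The difference in number was not matched by one in size. The median X stretch was 59.0 kb, against 59.2 kb over the autosomal arms together, and the shares of 100 kb or more were 18 of 90 on the X and 27 of 170 on the autosomes. Regions were also sparser on the X outside the stretches, where they covered 33.5% of the sequence, against 43.9% on the autosomal arms. The direction reversed in 1 alternative. When only the higher-scoring 50% of combined regions could end a stretch, the X share was 0.935 times the autosomal mean. It was 1.52 and 1.77 times that mean in the single replicate lists, and 1.63 times without regions narrower than any replicate region. X regions scored higher within the combined list, with a median percentile of 73.1 for X regions that border no stretch, against 40.8 on 2L, 43.8 on 3L and 43.6 on 3R. The part of the score in the X result was not tested beyond this. With 1 arm against 3, the smallest one-sided p that an exact permutation test allows is 0.25, so none was run.

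Both replicates were nearly empty of regions within the stretches. Replicate 1 regions held 9.94 kb and replicate 2 regions 16.3 kb of the 19.3 Mb, or 0.0514% and 0.0842% of it (mean 0.0678% ± 0.0232, SD, n = 2). In gaps of 10 to 40 kb on the same arms the values were 0.226% and 0.277%. Over the whole arms the replicates covered 17.1% and 18.2%. The combined list was made from the same libraries, so this is a check of the lists against each other and not an independent measurement. Only 52 of 7603 replicate 1 regions and 79 of 8137 replicate 2 regions shared no base with a combined region. Few replicate bases are therefore left for gaps of any length. Bases reaching in past a border, 5.64 kb and 4.76 kb here, also weigh less in long gaps, which have fewer ends per length.

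Of the 260 stretches, 161 (61.9%) held no base of either replicate list, against 67.8% of gaps of any length. Those without a base of replicate 1 numbered 209, and those without a base of replicate 2 also numbered 209 (80.4% each), against 84.3% and 82.2% of gaps of any length. These shares are near the background and say nothing particular about long gaps. The other 99 stretches were mostly touched at their ends. A replicate region that reached past the border of its combined region did so by a median of 59 bp in replicate 1 (49 cases, at most 776 bp) and 75 bp in replicate 2 (45 cases, at most 668 bp).

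A whole replicate region lay inside 10 stretches. There were 3 such regions in replicate 1 and 8 in replicate 2, or 0.155 and 0.414 per Mb of stretch, against 0.787 and 1.08 per Mb in gaps of 10 to 40 kb. None of these 11 regions had a counterpart in the other replicate. That share was not computed for all replicate regions, and these 11 were by choice regions that the combined list lacked. They were 1315 to 1572 bp wide in replicate 1 and 1344 to 1525 bp wide in replicate 2, close to the narrowest region of either list, 1301 bp. Most scored low within their list, with median percentiles of 18.1 and 20.7, and the highest, on 3L from 4456680 to 4458047 in replicate 2, stood at 87.6.

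The 5 stretches with the most replicate sequence were these. On 2L from 18711721 to 18820207, a stretch of 108 kb, replicate 1 held 1315 bp and replicate 2 held 1344 bp in separate regions that did not overlap. On 3R from 24241385 to 24308387, 67.0 kb, replicate 2 held 1484 bp and replicate 1 overhung by 427 bp. This was the largest replicate length on 3R, still a small part of the stretch. The 63.2 kb on 2L from 5566463 to 5629633 held 1572 bp of replicate 1 and none of replicate 2. The last pair lay on 3R and were both 40411 bp long, with 1525 bp of replicate 2 in the stretch from 3509005 to 3549415 and 1496 bp in that from 17405965 to 17446375. In 4 of these 5, a single replicate supplied the whole regions.

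Most stretches were longer in the replicate lists than in the combined list, which holds more regions. The region-free length around a member had a median of 100 kb in replicate 1 and 90.9 kb in replicate 2, or 1.36 and 1.29 times the member's own length. It was longer than the member for 255 of 260 in replicate 1 and for 249 in replicate 2, and at least 2 times as long for 69 and 60. Over all sequences the combined list held 12942 regions, against 7603 and 8137 in replicates 1 and 2, so longer gaps there are partly built in. The same counts were not made for gaps of any length, so they say nothing particular about long gaps. One member was cut below 40 kb, on 2L from 3953065 to 3994957. There a replicate 1 region left 28.0 kb free, while 65.6 kb around it were free in replicate 2. In all, 258 of 260 members overlapped a span of 40 kb or more that was free of regions in both replicates at once. For 235 members the span free in both was longer than the member itself. Few replicate regions lay outside combined regions, so these 2 counts are also partly built in. They were not made for gaps of any length either.

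**Figure D2:**
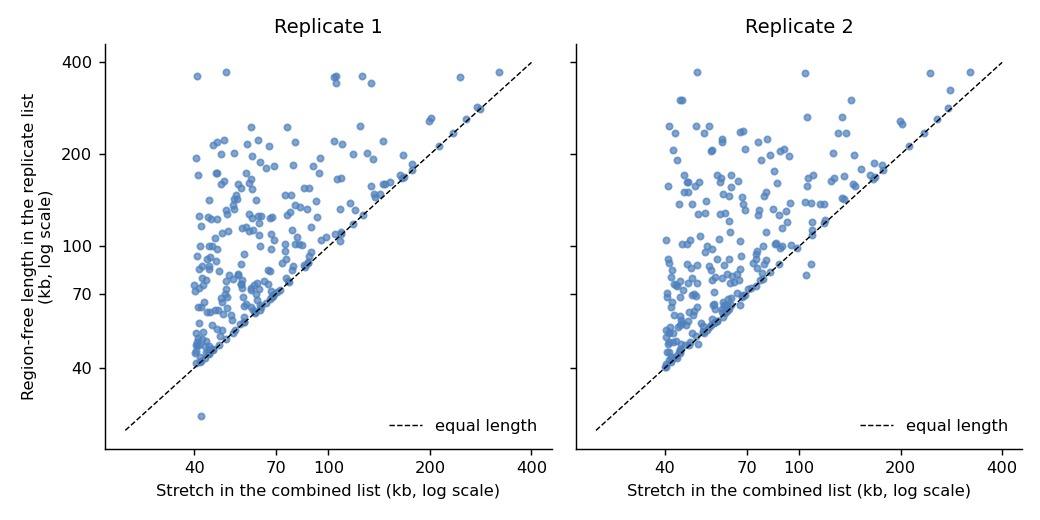
Region-free length in the replicate 1 list (left) and the replicate 2 list (right) around each of the 260 stretches, against its length in the combined list, both in kb on log scales; the dashed line marks equal length. Points crowd just above the line or lie far above it, and 1 point in replicate 1 stands well below it, at 28.0 kb.

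The replicate lists taken alone had further long gaps that the combined list broke up. The same rule gave 489 stretches over 40.9 Mb in replicate 1 and 472 over 38.7 Mb in replicate 2. The members took in 46.4% and 49.6% of that length, while 98.3% and 99.3% of member length lay inside it. Spans of 40 kb or more free in both replicates numbered 392 and made up 30.8 Mb, of which 62.2% lay in members. Combined regions took up 1.63 Mb of those spans, and 985 regions lay wholly within them, with a median width of 1259 bp. Of the 392 spans, 150 met no member, in total 8.05 Mb, since combined regions lay in them or reached into them.

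The ends of the stretches were compared between lists. Of 520 ends, 173 (33.3%) had the end of a region-free stretch of replicate 1 within 1 kb, and 175 (33.7%) had one of replicate 2. For 98 ends (18.8%) both replicates lay within 1 kb, and for 270 (51.9%) neither did. These shares were near those of gaps of any length on the 4 arms, of whose ends 18.9% had both replicates within 1 kb and 47.0% had neither. Both replicates matched 17 of 180 ends on the X (9.44%), against 31 of 118 on 2L, 24 of 112 on 3L and 26 of 110 on 3R. Over gaps of any length the share was likewise lower on the X, at 11.1%, against 19.7% on 2L, 21.2% on 3L and 21.5% on 3R. In all, 15 stretches were matched by both replicates at both ends, 7 on 2L, 7 on 3R and 1 on 3L, with none on the X. The share matched at both ends was not computed for gaps of any length, so these counts say nothing particular about long gaps or the X.

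The longest members of each arm show both kinds of border. On 2L the stretch from 12455115 to 12689843 measured 234.7 kb in the combined list, 234.8 kb in replicate 1 and 235.3 kb in replicate 2. Another, from 11284131 to 11496355, measured 212.2 kb, 212.3 kb and 212.7 kb in the same lists. These were the longest stretches whose ends were matched in both replicates, and both lay in the middle of the arm. The longest on 2L, from 22478669 to 22734943 in the 10% of the arm next to the centromere, measured 256.3 kb, against 261.3 kb in replicate 1 and 261.7 kb in replicate 2.

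On 3L the 3 longest were also the 3 longest of all members, and all lay in the 10% of the arm next to the centromere. The first, from 23337541 to 23658671, measured 321 kb, with 372.4 kb free in replicate 1 and 372.3 kb free in replicate 2. The replicate lengths differed less from each other than from the combined list, and neither replicate held the 1337 bp region that ends the stretch on its centromeric side. The second, from 23744019 to 24025065, measured 281.0 kb, with 282.2 kb free in replicate 1 and 325.9 kb in replicate 2. The third, from 24257479 to 24533677, measured 276.2 kb, with 286.2 kb and 284.1 kb.

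On the X the longest stretch, from 21602527 to 21847793, measured 245.3 kb, against 358.6 kb in replicate 1 and 368.2 kb in replicate 2. Its borders were narrow, 1085 bp and 1057 bp, below the narrowest width found in the replicate lists. By score the first stood at percentile 99.8 of the combined list and the second at 40.7. The next X stretches lay near the other end of the chromosome. One from 197917 to 364685 measured 166.8 kb, with 198.9 kb free in replicate 1 and 187.7 kb in replicate 2, and one from 4264813 to 4427437 measured 162.6 kb, with 171.8 kb free in both.

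No member on 3R reached 150 kb. The longest, from 19218385 to 19365047, measured 146.7 kb, with 160.1 kb free in replicate 1 and 157.3 kb in replicate 2. The next measured 119.7 kb, from 9665117 to 9784833, with 131.9 kb and 122.0 kb free. The third, from 27288223 to 27406419 in the 10% of the arm next to the telomere, measured 118.2 kb, with 118.3 kb free in replicate 1 and 119.6 kb in replicate 2. This holds for members only, because the 3 gaps set aside by the rule also lay on 3R. They measured 97255 bp, 304667 bp and 336277 bp, and the last was longer than any member on any arm. With these 3 gaps the arm would have 58 stretches over 15.6% of its length.

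Most of the stretches, 221 of 260, did not lie directly beside another, though members were only 2.54% of all gaps on these arms. Between neighbouring members on an arm the median distance was 154 kb, and 26 of 256 such distances (10.2%) were under 10 kb. In 20 places a single region narrower than 10 kb had a stretch on each side. These places joined 39 of the 260 members into 19 runs. Of these 39 members 25 were on the X, or 27.8% of X members, against 6.78% on 2L, 10.7% on 3L and 7.27% on 3R. Members were also a larger share of all gaps on the X, at 4.42%, against 2.41% on 2L, 2.13% on 3L and 1.75% on 3R. How many members such shares alone would place in runs was not computed, on the X or over the 4 arms. The only run of 3 lay on the X from 3578949 to 3749111. Over its 170 kb the combined list had 2 regions of 1825 and 1921 bp, and the replicates covered 1.16% and 0.876%.

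Runs of 2 were found on every arm. The longest spanned 372 kb on 3L from 23337541 to 23709691 and was broken in the combined list by that 1337 bp region, with no base in either replicate. On 2L a run from 21974339 to 22122649 spanned 148 kb, and on 3R one from 13705939 to 13815351 spanned 109 kb. The regions that broke them, of 2331 and 1001 bp, had no base in either replicate. The X run longest by span, of 2 stretches, covered 351 kb from 21497245 to 21847793. Spans without any member were longer than a megabase on each arm. The longest was 1.49 Mb on 3R from 10321170 to 11809266, where regions covered 48.9% of the sequence, and 24.8% and 27.8% in the replicates.

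The stretches occurred all along the arms. With each arm cut into 10 equal bins, 33 of the 260 touched the bin next to the centromere. The border of the heterochromatin is not given in the files, so the euchromatic position of the members rests on this count alone. Those 33 made up 3.79 Mb and were longer, with a median of 79.7 kb, against 57.0 kb for the other 227, which made up 15.5 Mb. Of the 8 members of 200 kb or more, 5 touched a centromeric bin. The centromeric bin was the one most filled with stretches on 3 arms, at 53.5% of X, 48.3% of 2L and 47.7% of 3L, against 26.6%, 17.9% and 14.2% on average elsewhere on these arms. 3R differed, with 11.1% in its centromeric bin and 13.2% in its remaining bins. With the 3 gaps set aside by the rule, the 3R value would be 21.9%. Assembly gaps and repeated sequence, to which reads cannot be assigned, are most common near centromeres, and their part was not tested.

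**Figure D3:**
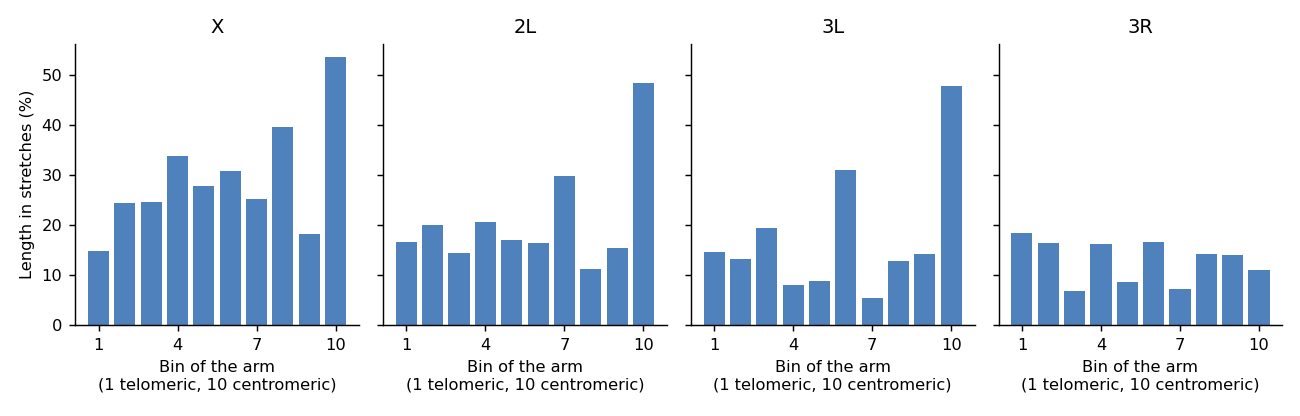
Share of each of 10 equal bins of the arm, in percent of its length, that lay in stretches, from the telomeric bin (1) to the centromeric bin (10), for X, 2L, 3L and 3R. The last bar is the highest on X (53.5%), 2L (48.3%) and 3L (47.7%), whereas on 3R it stands at 11.1%, below the mean of the other bins.

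Away from the centromere the stretches were unevenly spread on all 4 arms. On the X the other bins ranged from 14.8%, in the telomeric bin, to 39.6%. On 3L they ranged from 5.49% to 31.1%, on 2L from 11.1% to 29.9%, and on 3R from 6.94% to 18.5%. The telomeric bin was the highest on 3R for members only. A gap of 336277 bp set aside by the rule lay in bin 6 of 3R, of which members filled 16.5%, and was not counted. Assembled heterochromatin was emptier as a whole. On the 6 sequences with the suffix Het, 19 of 149 gaps (12.8%) reached 40 kb, and they took up 49.9% of the sequence, near the values of the centromeric bins of X, 2L and 3L. The longest gap there was 825 kb, against 321 kb among the members.

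Averaged over the 100 kb outside the stretches, H3K79me1 regions were almost as dense as on the arm as a whole. In the 100 kb outward from the bordering region, 29.9% of the sequence lay in combined regions, against 31.9% for the same arms as a whole, a ratio of 0.936. The replicates gave ratios of 0.929 and 0.913 (mean 0.921 ± 0.0115, SD, n = 2) for the same windows. Beside gaps of 10 to 40 kb the ratio was 1.02. In the first 10 kb the combined coverage was already 28.7%, and it lay between 28.1% and 32.8% in all 30 bins out to 300 kb. The windows include other members, which took up 19.5% of the 100 kb windows and less of the bins nearest the stretch. Without those bases the coverage was 37.1%, against 40.7% for the same arms outside members, both arm values weighted by where the windows lay. Counted so by bin, coverage rose from 31.6% in the first 10 kb to 38.3% at 40 to 50 kb. It was highest, at 43.4%, at 130 to 140 kb, and stood at 41.0% at 290 to 300 kb. When each replicate list defined its own stretches, the ratio passed 1, at 1.07 in replicate 1 and 1.05 in replicate 2, so the direction of this small difference depends on the list.

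**Figure D4:**
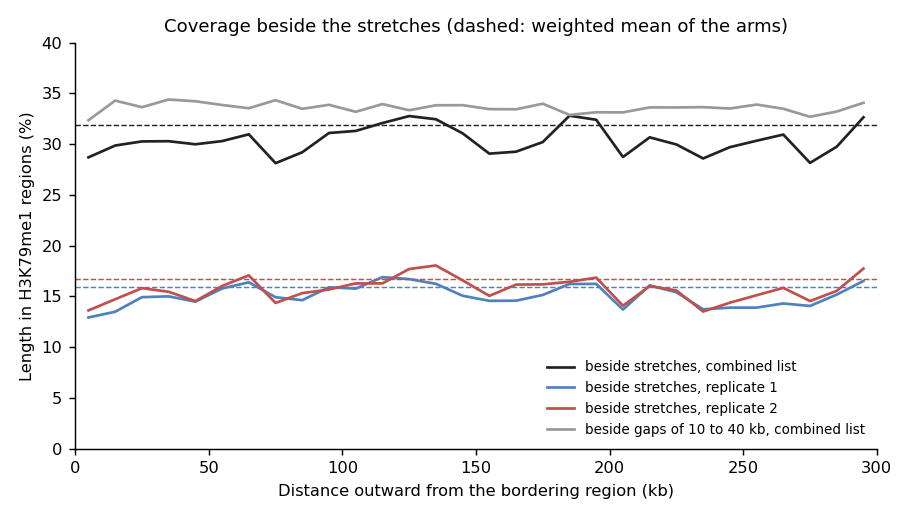
Share of sequence in H3K79me1 regions, in percent, in 10 kb bins outward from the region that borders a stretch, for the combined list (black), replicate 1 (blue) and replicate 2 (red); dashed lines are the coverage of the arms weighted as the stretches are, and the grey line is the combined list beside gaps of 10 to 40 kb. Combined coverage is 28.7% in the first bin and stays between 28.1% and 32.8%, other members included. Outside members, which is not drawn, it is 31.6% in the first bin and highest, at 43.4%, at 130 to 140 kb.

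By arm, the ratio in the 100 kb windows was lowest on the X, at 0.860, against 0.967 on 2L, 0.995 on 3L and 0.927 on 3R. The replicates gave 0.830 and 0.844 on the X. They gave 0.952 and 0.931 on 2L, 1.03 and 0.972 on 3L, and 0.896 and 0.889 on 3R. On 3L the replicates thus lay on either side of 1. Other members took up 30.2% of the X windows, against 16.5%, 12.5% and 12.2% on 2L, 3L and 3R. Members of 100 kb or more had a ratio of 0.862, with 0.907 and 0.885 in the replicates.

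The regions at the borders were ordinary to narrow. The 260 stretches were bordered by 500 regions, 20 of which lay between 2 stretches. Their median width was 1691 bp, against 1983 bp for the 9756 regions of these arms that border no stretch, and 144 (28.8%) were narrower than any replicate region, against 21.1%. Their median score percentile in the combined list was 54.6, against 50.0, but the X, where regions score higher, gave 167 of the 500. Within arms it was 50.1 against 40.8 on 2L and 49.4 against 43.8 on 3L. It was lower than among others on 3R, at 37.8 against 43.6, and on the X, at 71.8 against 73.1. Of the 500, 140 (28.0%) had a base in both replicate lists, against 31.9% of all combined regions on these arms, and 238 (47.6%) had none in either, against 39.7%. Replicate 1 held 39.4% of them and replicate 2 held 41.0%, against 44.8% and 48.0% of the other regions.

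In 3 of 4 width classes the share in both replicates was higher among bordering regions than among others. From 1.5 to 2 kb, 7.08% of 113 bordering regions were in both, against 4.90% of 1981 others. From 2 to 5 kb, 55.6% of 133 bordering regions were in both replicates, against 49.3% of 3393 others, and all 58 bordering regions of 5 kb or more were in both, against 95.5% of 1414 others. Under 1.5 kb none of 196 was in both, against 0.236% of 2968, a class mostly narrower than any replicate region. The 20 regions between 2 stretches were narrower still, with a median of 1534 bp, and 2 of them were in both replicates while 12 were in neither. Their median score percentile was 74.1. Of the 19 runs that these regions broke, 12 lay on the X, where regions bordering no stretch had a median percentile of 73.1. On the X, 16.8% of 167 bordering regions were in both replicates, against 22.3% of 1873 others. The shares were 34.5% against 31.6% on 2L, 34.9% against 36.3% on 3L and 31.5% against 34.9% on 3R.

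**Figure D5:**
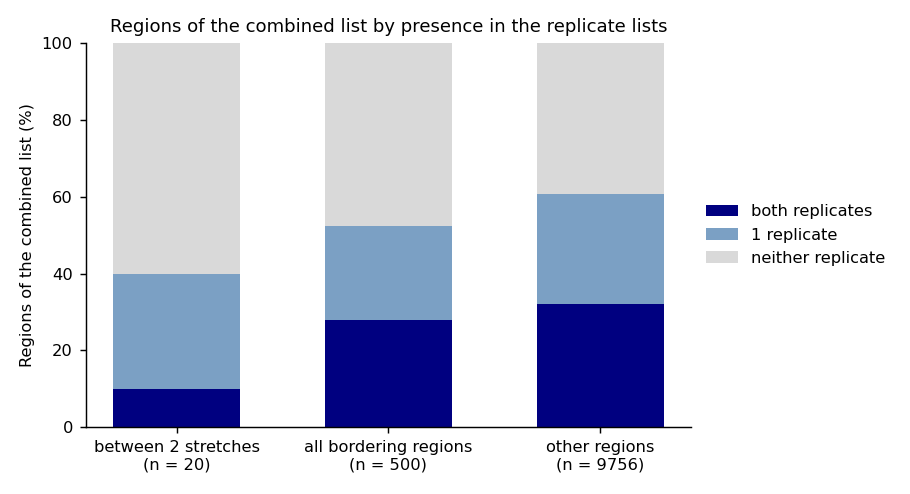
Share of combined regions, in percent, with a base in both replicate lists (dark), in 1 list (mid) or in neither (light), for the 20 regions between 2 stretches, all 500 bordering regions and the 9756 other regions of the 4 arms. The part found in neither list is 60.0%, 47.6% and 39.3%.

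Some stretches ended at broad domains. The widest bordering region spanned 36.5 kb on 2L from 310864 to 347378, at percentile 98.0, and replicates 1 and 2 covered 35332 and 32527 bp of it. The next spanned 28.2 kb on 3L from 12537422 to 12565616, at percentile 98.9, with 27401 and 26161 bp covered, and stood directly beside a stretch of 165 kb. The narrowest width, 1001 bp, was shared by 14 bordering regions on the 4 arms, none with a base in a replicate list. The first of these by position lay on 2L from 8883380 to 8884380 and from 9300952 to 9301952. Going outward by region, the median width was 1691 bp at the border, 1817 bp for the next region and 1971 bp for the fourth, and the share in both replicates stayed between 28.0% and 32.1% over the first 10.

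The 1 region that the authors named as depleted did not lie in a stretch. It covered 1379 bp on 3R from 4388308 to 4389686, in a gap of 2459 bp, and the nearest member was 344 kb away.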

How the data were processed

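Bowtie 0.12.7 is named in the submitters' processing notes. The authors deposited 1 region list per ChIP replicate and 1 for the combined replicates, on FlyBase release 5 per the file headers. The region caller, its threshold and the way of combining replicates are not given in sources used here. The deposited value of each region has no stated unit and was treated as log2, because score differences gave ratios of whole numbers (denominators up to 5000, relative tolerance 1e-11) on that scale for 96.9% to 99.9% of regions, and on natural log and log10 scales for at most 1.18%. Its scaling constant is unknown, so scores serve only as percentiles within a list.

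Gaps, coverage and overlap (at least 1 bp) were computed with Python 3.11.15, numpy 2.4.6 and pandas 2.3.3, and plotted with matplotlib 3.10.9. The gap search was tested on simulated data with planted gaps. A replicate's region-free length is its gap sharing most bases with the member, ends of the arm included. Windows beside stretches overlap one another. Library depth is unknown, so no interval that needs it is given.

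No test was run: the readout chose the members, the lists share libraries, and n is 2. The members and the features described were chosen with earlier results of these data known. The stretches named are the 3 longest per arm, the 5 with most replicate bases and those next to the threshold. Also named are the run of most stretches per arm (the longest where tied), the 2 widest borders and 2 of those tied as narrowest, taken by position. The replicate region of highest percentile, the member cut below 40 kb, the best-matched stretches, the X run longest by span and the span without members were added after their values were seen. Alternatives were other minimum lengths, each replicate list alone, all lists together, higher-scoring or wider regions, joining across narrow regions, no centromeric bins, other windows and a 50% overlap. The input libraries were not analysed.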

Additional observations from a re-analysis of the deposited data

How the results depend on the processing

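The values in the combined list were 260 stretches, 19.3 Mb, 61.9% without a replicate base, an X ratio of 1.70, a ratio of coverage beside stretches of 0.936 and 28.0% of bordering regions in both replicates. Their spread was taken from the single replicate lists, and a move beyond 1 SD (for the count, beyond 1.5 times) is given here. A minimum of 20 kb gave 708 stretches over 31.8 Mb, an X ratio of 1.45 and a coverage ratio of 0.981, and a minimum of 80 kb gave 66 over 8.77 Mb, 0.923 and 31.5% of borders in both. Leaving out a replicate (using the other's list) gave 472 to 489 stretches over 38.7 to 40.9 Mb, 17.6% to 26.1% without a base of the other list, X ratios of 1.52 to 1.77, 57.4% to 61.0% of borders in the other list, and coverage ratios of 1.05 to 1.07, which reversed. Higher-scoring regions alone gave 473 stretches over 35.2 Mb, 21.8% without a replicate base, a reversed X ratio of 0.935, a coverage ratio of 0.992 and 53.0% of borders. Dropping regions joins gaps by construction. Other causes were not tested. Regions at least as wide as the narrowest replicate region gave 25.2 Mb, 50.0%, a coverage ratio of 0.963 and 36.1% of borders. Joining across narrow regions gave a coverage ratio of 0.990, and leaving out the centromeric bins gave 15.5 Mb and 0.973. A 200 kb window gave 0.959, and an overlap of 50% gave 24.2% of borders. All lists together, and the 3R stretches put back (chosen after seeing the data), kept every value they gave within that spread. All lists together leave no replicate base by construction, so that share was not computed. No paired analysis was possible because no test was run and the input libraries were not analysed. Unknown depth limits every comparison of list lengths.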

Other observations

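Sequences outside the 4 arms also held gaps of 40 kb or more between combined regions. The fourth chromosome had 4 among its 78 gaps, the longest 86.2 kb, and they took up 19.6% of it. On 2RHet 11 of 78 gaps reached 40 kb, the longest 825 kb, and took up 77.1% of the sequence. On 3LHet 5 of 47 took up 59.4%, and on 3RHet 3 of 18 took up 23.0%. Neither 2LHet nor XHet had a gap of that length between regions, and YHet held no region. At the ends of the arms, where no second region closes the interval, the last 46.8 kb of 2L and the first 52.0 kb of 3L held no combined region.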
